A study of Arabidopsis thaliana with 8 samples.

Results

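The genes described here encode proteins of the cytosolic ribosome and their paralogs. They were taken by identifier: 60 Arabidopsis genes of 30 ribosomal proteins, 23 of the small subunit and 37 of the large subunit, out of 23632 genes in the table of normalized values. AT1G23290 (RPL27aB) was not among those 23632 genes and was listed at 0 in every library of the FPKM table, so that 59 members were measured. Its annotated span overlapped that of AT1G23300 on the opposite strand by 801 bases, and the part of this overlap in its value was not tested.

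The libraries came from 1 mm root tips of wild-type Arabidopsis thaliana (Col-0) seedlings, which were 5 days old when their plates were moved to 30 °C or stayed at 22 °C for 48 h. The high temperature group (HT, 30 °C) and the control group (CT, 22 °C) had 4 libraries each, every one a pool of 50 seedlings from 5 plates according to the methods, which speak of 3 replicates per temperature where the labels give 4. The plants carried no transgene or mutation, and the plates of both groups held 0.5X Murashige and Skoog medium with sucrose. The comparison asked how the root tip transcriptome differed after 48 h at high temperature. The segment holds the root cap, the meristem and the start of elongation, and in such bulk RNA fewer cells of a type and less RNA per cell cannot be told apart.

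A cytosolic ribosome consists of a small subunit, which reads the mRNA, and a large subunit, which joins the amino acids, and each subunit carries one copy of most of its proteins. In plants nearly every ribosomal protein is encoded by several genes in separate places of the genome, and the paralogs can differ in level and in the effect of their loss. Dividing cells of the root tip make many ribosomes, and transcripts of these genes are among the most abundant there. Short promoter sequences, the site II element (TGGGCC or TGGGCT) and the telo-box (AAACCCTA), are common upstream of plant ribosomal protein genes.

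The HT libraries held 38216649 to 41833843 reads in genes and the CT libraries 38396646 to 40750937, so that depth was alike. A normalized value is the number of reads of a gene divided by the library's size factor, which ranged from 1.03 to 1.14 in HT and from 0.904 to 0.967 in CT. The scaling between libraries matters here: with the deposited size factors all 21739 genes tested had a median log2 fold change of 0.01, and with every library scaled to an equal total they had one of 0.21. The main counts are therefore given under both scalings, and counts and fold changes without a remark are from the deposited one. Markers of root tips were present in every library, with PLT1 (AT3G20840) at 2205 to 2433 in HT and 1145 to 1394 in CT, and 2 of these 7 markers were higher and none lower. The summed markers of dividing cells (4 of 5 lower, none higher, and 2 lower with equal totals) were 4880 to 5336 in HT and 7610 to 8538 in CT. Those of differentiating cells (2 of 7 lower, and with equal totals 2 lower and 1 higher) were 15.8 to 247 in HT, where HT replicate 3 was highest, and 480 to 1067 in CT, with COBL9 at 0 in 2 HT libraries and EXPA7 at 0 in 3 HT libraries. With equal totals the root tip markers again had 2 of 7 higher and none lower. By the same rule, given below, 17.5% of all genes were lower and 20.0% higher, and 12.0% and 27.4% with equal totals. The root tip list is short, and its 2 higher markers are near the share of all genes. The part of these cell types in the values below was not tested.

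Most of the measured ribosomal protein genes were lower at high temperature, by moderate amounts, and a few paralogs were at about the same level or higher. Of the 59 measured members 38 were lower, 1 was higher and 20 were neither, where a call by limma over all genes needs an adjusted p below 0.05 together with a log2 fold change of 0.58 or more in either direction. Of all genes tested 17.5% were lower and 20.0% were higher by the same rule. The median log2 fold change of the members was -0.71 (range -1.40 to 0.93). By the adjusted p alone 54 members were lower and 3 higher, where 35.2% and 35.9% of all genes were. In 53 members every HT library lay below every CT library and in 3 every HT library lay above, against 32.7% and 32.8% of all genes.

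With equal totals the picture was milder in size and nearly the same in direction. At both thresholds 19 members were lower and 2 were higher (all genes 12.0% and 27.4%), and by the adjusted p alone 50 were lower and 6 higher (all genes 25.6% and 47.9%). The median of the members was -0.50 on this scale. Quantile normalization left 10 members lower and 2 higher at both thresholds, with a median of -0.32. The share of all genes called under this normalization is not given here, so these counts have no background beside them. Leaving out any 1 library gave 38 or 39 lower members with the deposited scaling and 18 to 22 with equal totals. Of all 21739 genes tested 3628 to 3844 were then lower with the deposited scaling. For the equal totals fits with 1 library left out, the count over all genes is not given here.

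**Figure D1:**
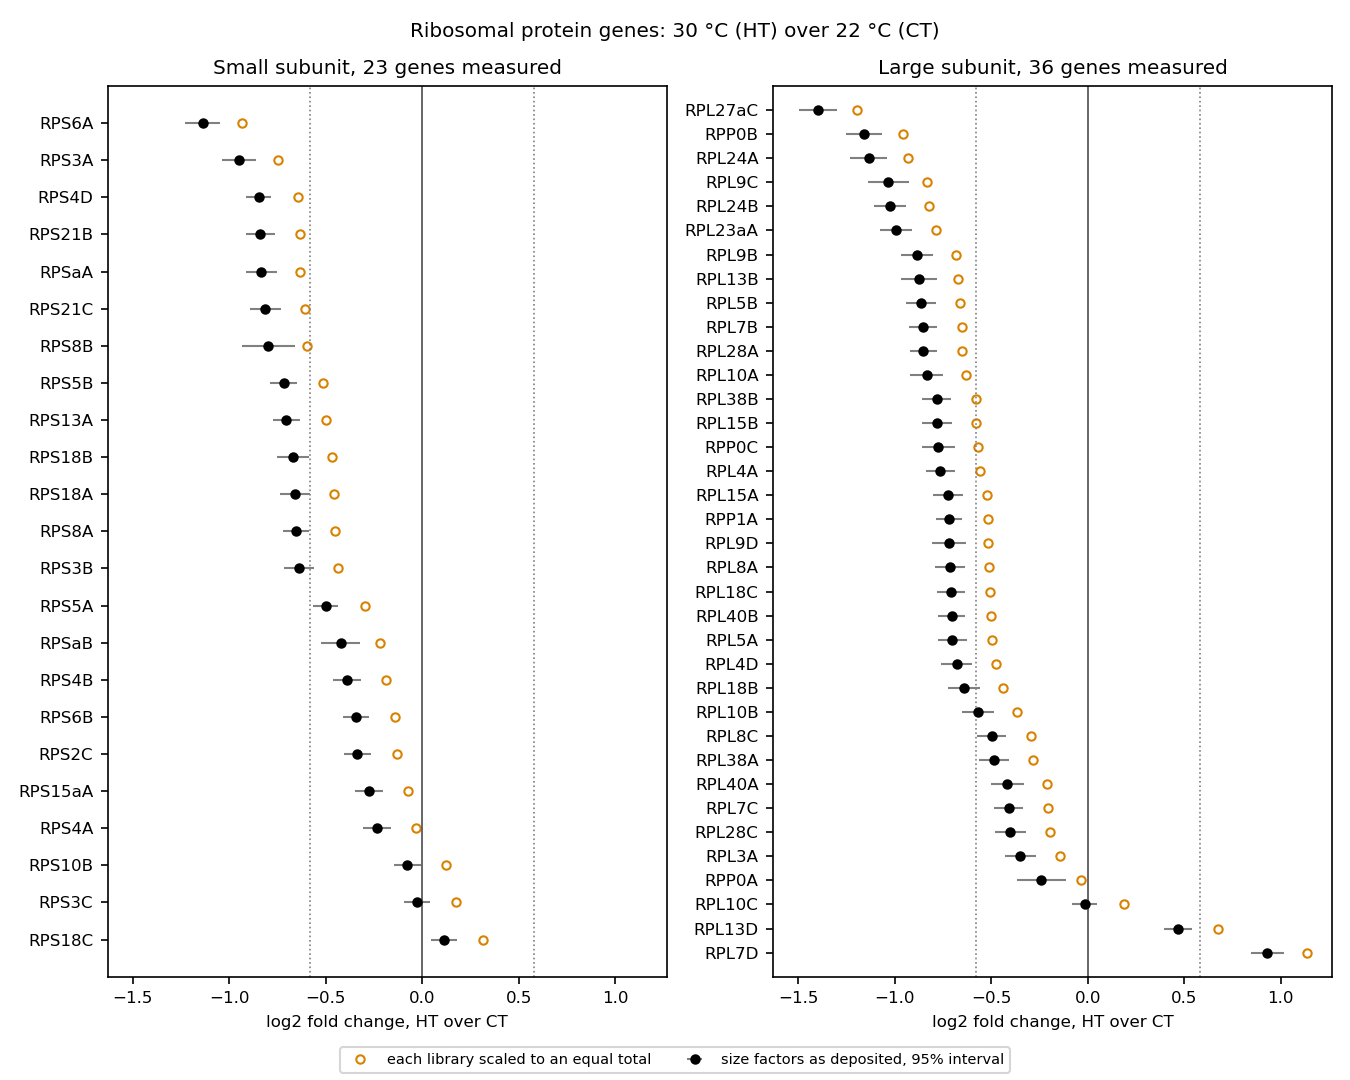
The plot of fold changes shows every measured member by subunit, with the log2 fold change of HT over CT on the horizontal axis. Filled points with 95% intervals are from the deposited size factors, open points are from equal totals, and dotted lines mark 0.58 in either direction. The points run from -1.40 for RPL27aC to 0.93 for RPL7D, and each open point lies to the right of its filled point.

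As a share of all reads the members together made up 3.43, 3.54, 3.49 and 3.58% in the HT libraries, against 4.69, 4.80, 4.68 and 4.92% in the CT libraries. The groups did not overlap, and this share does not depend on the size factors. The summed normalized values at HT were 0.638 of those at CT with the deposited size factors and 0.735 with equal totals. A single member had between 518 and 87520 reads in a library, and 47 of the 59 were among the 500 genes with the highest mean normalized value.

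Genes of both subunits were lower. In the small subunit 13 of 23 measured members were lower and none was higher, with a median log2 fold change of -0.65, and in the large subunit 25 of 36 were lower and 1 was higher, with a median of -0.72. With equal totals 7 small and 12 large subunit members were lower, and the medians were -0.45 and -0.52. To compare levels between genes, FPKM values were used, which divide by the length of the gene. The summed FPKM of the small subunit members was 10861 ± 254 in HT and 16075 ± 390 in CT (SD, n = 4 each), and that of the large subunit members was 17175 ± 517 in HT and 27994 ± 712 in CT (SD, n = 4 each).

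The ratio of small to large subunit FPKM within a library was 0.640, 0.629, 0.631 and 0.630 in the HT libraries, against 0.577, 0.574, 0.573 and 0.573 in the CT libraries. Every HT library lay above every CT library in this ratio, which the scaling between libraries cannot move. It is a sum over the listed members only and was not tested. At the level of the protein, the FPKM of the measured members was summed, without any paralog outside the list. For 8 of the 30 proteins the sum is 1 gene. These sums had a lower mean at HT for 30 of 30 proteins, and for 29 of them the libraries did not overlap. The exception was RPS10, represented by RPS10B alone. Of all single genes tested, 32.7% had every HT library below every CT library. The sums of the proteins carry the deposited size factors. With equal totals RPS10B was above 0 (0.13). The libraries of RPS15aA, the one RPS15a gene among the members, then overlapped (-0.07), so that neither the 30 nor the 29 holds on that scale. The log2 ratio of these sums ran from -1.39 for RPL27a through -1.11 for RPP0 and -1.06 for RPL24 to -0.08 for RPS10. The value of RPL27a is that of RPL27aC alone, as its listed paralog RPL27aB was not measured.

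**Figure D2:**
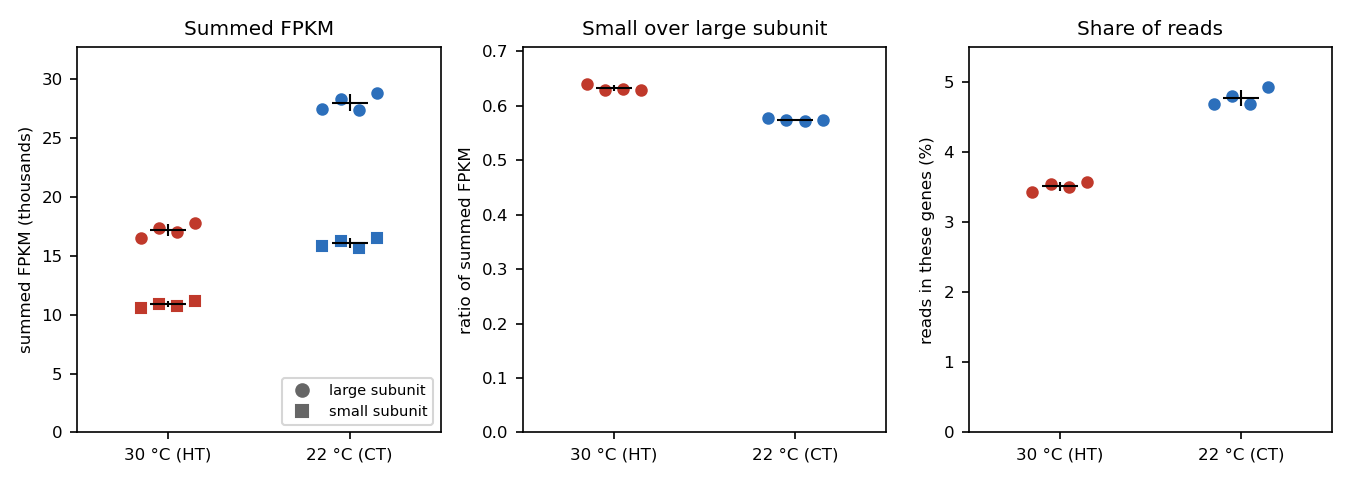
Each point is a library, with HT in red and CT in blue, and black bars are the mean and SD of 4 libraries. The panels show the summed FPKM of large and small subunit members, the ratio of the small to the large sum, and the share of all reads, and in each panel the HT and CT points are apart.

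The largest decreases at both thresholds were in 5 large subunit genes and 1 small subunit gene. RPL27aC (AT1G70600, bases 26620821 to 26621779 of chromosome 1 in TAIR10.1) encodes a large subunit protein whose loss of function disturbs ovule and leaf development in Arabidopsis. It had normalized values of 17848, 20544, 20533 and 21263 in the HT libraries, against 52021, 52277, 51879 and 54562 in the CT libraries. The HT values were all under those of CT, with a log2 fold change of -1.40 ± 0.05 (SE) and an adjusted p of 1.1e-12 from limma. It was the member with the largest decrease under both scalings (-1.19 with equal totals), and its paralog RPL27aB, listed at 0, shares 91.8% of its coding bases and at most 56 bases in a row.

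RPP0B (AT3G09200) encodes P0, the base of the stalk to which the acidic P1 and P2 proteins bind and which receives the elongation factors. It had 35175, 38943, 38354 and 40678 in the HT libraries, against 83199, 86682, 82502 and 89328 in the CT libraries, a log2 fold change of -1.16 ± 0.04 (SE) with an adjusted p of 4.5e-12 from limma. Its annotated span overlaps AT3G09210 on the same strand by 100 bases. Of the other stalk genes, RPP0C (AT3G11250) had a log2 fold change of -0.77 and RPP1A (AT1G01100), which encodes an acidic P1 protein, of -0.72, and both lost their call with equal totals (-0.57 and -0.52). RPP0B kept it (-0.96). RPP0A, the least abundant of the large subunit members, had -0.24 and did not pass the fold threshold.

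RPS6A (AT4G31700) encodes ribosomal protein S6, which S6 kinase phosphorylates downstream of the TOR kinase. Its normalized values were 21768, 23855, 23466 and 25335 in the HT libraries, against 51135, 53098, 49872 and 53600 in the CT libraries, so that the HT mean was 0.455 of the CT mean. The log2 fold change was -1.14 ± 0.04 (SE), adjusted p 4.1e-12 from limma, the largest decrease among the measured small subunit members under both of these scalings. RPL24A (AT2G36620) had 9722, 10647, 10614 and 11470 in the HT libraries, against 22896, 24145, 22165 and 23917 in the CT libraries, and its paralog RPL24B (AT3G53020), known as SHORT VALVE1 and needed for reinitiation after upstream open reading frames, had 18660, 20725, 20125 and 21083 in the HT libraries, against 40090, 41534, 40019 and 42099 in the CT libraries. For both RPL24 genes the groups did not overlap, with log2 fold changes of -1.13 and -1.02.

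RPL9C (AT1G33140), one of the PIGGYBACK genes of leaf polarity, had 5655, 6896, 6479 and 6246 in the HT libraries, against 12458, 12841, 13586 and 12779 in the CT libraries. Its log2 fold change was -1.03 ± 0.05 (SE), but the gene shares a run of 565 identical transcript bases with RPL9B (AT1G33120, log2 fold change -0.89), and 99.1% of the coding bases of this pair are alike. Reads from the shared run could have been given to either gene, so that the split between RPL9C and RPL9B is uncertain. RPL9D (AT4G10450), with 80.3% identity to RPL9C, had -0.72, and all of the RPL9 genes were lower with the deposited scaling, while RPL9D lost its call with equal totals (-0.51). The 6 members with the largest decreases also passed both thresholds with equal totals, at -1.19 to -0.82.

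Further members past both thresholds included RPL23aA (AT2G39460, log2 fold change -0.99), whose protein lies at the exit of the peptide tunnel, RPSaA (AT1G72370, -0.83), the main gene of the p40 protein, and RPS13A (AT4G00100, -0.70), known as POINTED FIRST LEAF 2. RPS13A fell short of the fold threshold with equal totals (-0.50), and RPL23aA and RPSaA passed it (-0.79 and -0.63). The median log2 fold change of the 38 lower members was -0.79.

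RPL7D was the one member higher at both thresholds. RPL7D (AT3G13580, bases 4433047 to 4435305 of chromosome 3) is one of several genes for RPL7 of the large subunit. Its values were 19979, 19302, 18723 and 17828 in the HT libraries, against 9773, 10089, 9480 and 10427 in the CT libraries. Every HT library was above every CT library, with a log2 fold change of 0.93 ± 0.04 (SE) and an adjusted p of 1.4e-11 from limma, and 1.13 with equal totals. RPL7B (AT2G01250), the main RPL7 gene in these root tips, went the other way with 25151, 26784, 25823 and 26948 in the HT libraries, against 47333, 47868, 46192 and 47722 in the CT libraries (log2 fold change -0.85, adjusted p 4.9e-12 from limma). RPL7C (AT2G44120) had 16149, 16432, 16338 and 17276 in the HT libraries, against 21334, 21888, 21527 and 23131 in the CT libraries and passed the adjusted p with -0.41, short of the fold threshold.

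RPL13D (AT5G23900), one of the genes for RPL13 of the large subunit, had 21796, 20781, 20054 and 20527 in the HT libraries, against 14603, 15040, 14812 and 15556 in the CT libraries. It was higher in every HT library, with a log2 fold change of 0.47 ± 0.03 (SE), which missed the fold threshold with the deposited size factors and passed both thresholds with equal totals (0.67, adjusted p 7.3e-11 from limma). RPL13B (AT3G49010) had 27339, 29219, 28617 and 31026 in the HT libraries, against 51311, 54112, 51264 and 56103 in the CT libraries, a log2 fold change of -0.87 ± 0.04 (SE). The summed FPKM of these RPL13 genes was 1035 ± 21.4 in HT and 1278 ± 49.3 in CT (SD, n = 4 each), a log2 ratio of -0.30.

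Upstream sequences are shown for 3 pairs whose members moved by different amounts, RPL7B with RPL7D, RPL13B with RPL13D and RPS6A with RPS6B. Each is the 250 bases before the annotated gene start, read 5′ to 3′ on the strand of the gene from the RefSeq copy of the genome (TAIR10.1). Capitals mark the site II letters TGGGCC and TGGGCT and the telo-box letters AAACCCTA on either strand. They come from chr2:134456-134705 (minus strand, RPL7B), chr3:4432797-4433046 (plus strand, RPL7D), chr3:18168701-18168950 (minus, RPL13B), chr5:8065551-8065800 (minus, RPL13D), chr4:15347805-15348054 (minus, RPS6A) and chr5:3260255-3260504 (minus, RPS6B).
RPL7B: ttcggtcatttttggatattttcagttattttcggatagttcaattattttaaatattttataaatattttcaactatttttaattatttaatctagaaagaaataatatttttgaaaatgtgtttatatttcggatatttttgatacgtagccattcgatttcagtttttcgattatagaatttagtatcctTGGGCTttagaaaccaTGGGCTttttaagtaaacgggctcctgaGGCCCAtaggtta
RPL7D: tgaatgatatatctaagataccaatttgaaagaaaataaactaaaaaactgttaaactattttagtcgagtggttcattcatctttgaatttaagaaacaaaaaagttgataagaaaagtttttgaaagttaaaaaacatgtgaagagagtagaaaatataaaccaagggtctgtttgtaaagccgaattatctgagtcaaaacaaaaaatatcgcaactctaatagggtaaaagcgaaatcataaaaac
RPL13B: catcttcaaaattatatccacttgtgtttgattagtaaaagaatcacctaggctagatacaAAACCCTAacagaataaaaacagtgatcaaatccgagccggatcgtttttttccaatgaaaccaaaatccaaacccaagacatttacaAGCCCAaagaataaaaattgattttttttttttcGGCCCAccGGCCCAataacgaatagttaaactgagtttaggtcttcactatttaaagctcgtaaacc
RPL13D: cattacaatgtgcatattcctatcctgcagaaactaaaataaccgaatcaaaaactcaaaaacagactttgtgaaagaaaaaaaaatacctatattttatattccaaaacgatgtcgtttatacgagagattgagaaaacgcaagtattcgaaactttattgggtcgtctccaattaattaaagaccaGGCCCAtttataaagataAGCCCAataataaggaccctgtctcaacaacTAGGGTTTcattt
RPS6A: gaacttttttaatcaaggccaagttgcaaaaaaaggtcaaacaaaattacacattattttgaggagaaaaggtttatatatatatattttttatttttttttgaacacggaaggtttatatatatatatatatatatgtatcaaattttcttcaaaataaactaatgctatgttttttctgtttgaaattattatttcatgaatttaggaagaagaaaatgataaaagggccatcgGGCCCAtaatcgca
RPS6B: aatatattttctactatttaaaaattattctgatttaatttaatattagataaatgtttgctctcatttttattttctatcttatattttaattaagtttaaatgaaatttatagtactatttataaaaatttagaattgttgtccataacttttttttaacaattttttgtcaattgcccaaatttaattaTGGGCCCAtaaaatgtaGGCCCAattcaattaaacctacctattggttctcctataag

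RPL7B, which was lower, held 3 site II matches in this stretch, and RPL7D, which was higher, held neither a site II nor a telo-box match. RPL13B had 3 site II matches and 1 telo-box, and RPL13D, which went the other way, also had 2 and 1. RPS6A had 1 site II match and RPS6B 3, of which 2 overlap in one palindrome. A match is a description of letters and says nothing of a factor at that place.

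A few members differed little with the deposited size factors, and for RPL10C, RPS3C and RPS10B the scaling decides the sign. RPL10C (AT1G66580) had 31906, 31140, 30731 and 31370 in the HT libraries, against 30924, 31713, 31697 and 32067 in the CT libraries, with a log2 fold change of -0.01 (95% interval -0.08 to 0.05) and 0.19 with equal totals. RPS3C (AT5G35530) had 22116, 22321, 22444 and 23078 in the HT libraries, against 22733, 23076, 22352 and 23548 in the CT libraries, with -0.03 (95% interval -0.09 to 0.04) and 0.18 with equal totals. The libraries of HT and CT overlapped for both genes with the deposited size factors. With equal totals both were higher in every HT library and by the adjusted p (1.5e-05 and 2.7e-05 from limma), under the fold threshold. RPS10B (AT5G41520), a small subunit gene, had 24214, 24922, 24436 and 25597 in the HT libraries, against 25981, 26747, 25125 and 26860 in the CT libraries. Its log2 fold change was -0.08 (adjusted p 0.046 from limma) and 0.13 with equal totals (adjusted p 0.0011 from limma). RPS18C (AT4G09800) had 17322, 16804, 16367 and 16520 in the HT libraries, against 15319, 15732, 15085 and 15874 in the CT libraries, higher in every HT library and at 0.11 or, with equal totals, 0.32, under the fold threshold both ways.

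By FPKM the most abundant small subunit member was RPS8A (AT5G20290), with 1258 ± 18.0 FPKM in the HT libraries, against 1979 ± 25.6 FPKM in the CT libraries. Its normalized values were 55256, 55692, 54552 and 56451 in the HT libraries, against 86784, 87190, 86263 and 88873 in the CT libraries, a log2 fold change of -0.65 that no longer passed the fold threshold with equal totals (-0.45). The least abundant was its own paralog RPS8B (AT5G59240), with 486, 518, 516 and 587 in the HT libraries, against 882, 954, 874 and 950 in the CT libraries and a log2 fold change of -0.80. At the top of the large subunit was RPL3A (AT1G43170), whose protein reaches into the peptidyl transferase centre, with 1028 ± 39.1 FPKM in the HT libraries, against 1308 ± 30.8 FPKM in the CT libraries. RPL3A had 72801, 69643, 67389 and 72970 in the HT libraries, against 88225, 91982, 88051 and 91613 in the CT libraries, which do not overlap, and its log2 fold change of -0.35 passed the adjusted p alone. RPP0A (AT2G40010), the lowest, had 717, 689, 662 and 782 in the HT libraries, against 830, 858, 804 and 868 in the CT libraries. The RPP0A gene lies over a gene on the opposite strand for 1185 bases, and whether the counts took strand into account is not given in the sources used here.

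Paralogs of one protein often moved by different amounts. The 59 measured members gave 36 pairs of paralogs within 22 proteins. For each pair the log2 ratio of the normalized values was taken in each library, which the scaling between libraries does not touch, and HT and CT ratios were set against each other in an exact permutation test (two-sided, 70 arrangements, adjusted over the 36 pairs). In 32 pairs the HT ratios lay wholly above or below the CT ratios (exact p = 0.029, the smallest that 4 against 4 libraries can give, adjusted p = 0.032). In 11 of these the change was at least 0.58 on the log2 scale, and the median size over all 36 was 0.35. Ratios of other gene pairs were not computed, so how often pairs that are not paralogs separate is not known. Of all single genes tested, 32.7% had every HT library below every CT library and 32.8% had every one above.

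The 8 largest changes were in RPL7, RPL13, RPS3, RPP0, RPL10, RPS6 and RPS18. The log2 ratio of RPL7B to RPL7D was 0.33, 0.47, 0.46 and 0.60 in the HT libraries, against 2.28, 2.25, 2.28 and 2.19 in the CT libraries, a difference of -1.78 (95% interval -1.89 to -1.68). That of RPL7C to RPL7D differed by -1.34 (95% interval -1.44 to -1.24). The log2 ratio of RPL13B to RPL13D was 0.33, 0.49, 0.51 and 0.60 in the HT libraries, against 1.81, 1.85, 1.79 and 1.85 in the CT libraries, a difference of -1.34 (95% interval -1.45 to -1.24). For both proteins the ratios of the HT and CT libraries were apart by more than the spread within either group.

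The other changes among the 8 were smaller. RPS3A (AT2G31610), which like RPS3C encodes a protein at the mRNA entry of the small subunit, had 13825, 15214, 14937 and 16024 in the HT libraries, against 28424, 29189, 28245 and 29923 in the CT libraries, and its log2 ratio to RPS3C differed by -0.92 (95% interval -0.99 to -0.85). RPL10A (AT1G14320), a gene of antiviral signalling through the receptor kinase NIK1, had 35759, 38663, 37367 and 40249 in the HT libraries, against 65702, 68843, 66678 and 69726 in the CT libraries, and its ratio to RPL10C differed by -0.82 (95% interval -0.90 to -0.74). In both pairs the A paralog was lower under both scalings, and for the C paralog the groups overlapped with the deposited size factors only. RPS6B (AT5G10360) had 31353, 31032, 30915 and 32265 in the HT libraries, against 39533, 39769, 38965 and 41154 in the CT libraries, and the ratio of RPS6A to RPS6B differed by -0.79 (95% interval -0.87 to -0.71). RPS18B (AT1G34030) had 8655, 9570, 9354 and 9833 in the HT libraries, against 14803, 15093, 14348 and 15262 in the CT libraries, and its ratio to RPS18C differed by -0.78 (95% interval -0.88 to -0.68). The ratio of RPP0A to RPP0B differed by 0.92 (95% interval 0.82 to 1.02), with both genes lower by the adjusted p with the deposited size factors and RPP0A no longer so with equal totals (-0.04, adjusted p 0.58 from limma).

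**Figure D3:**
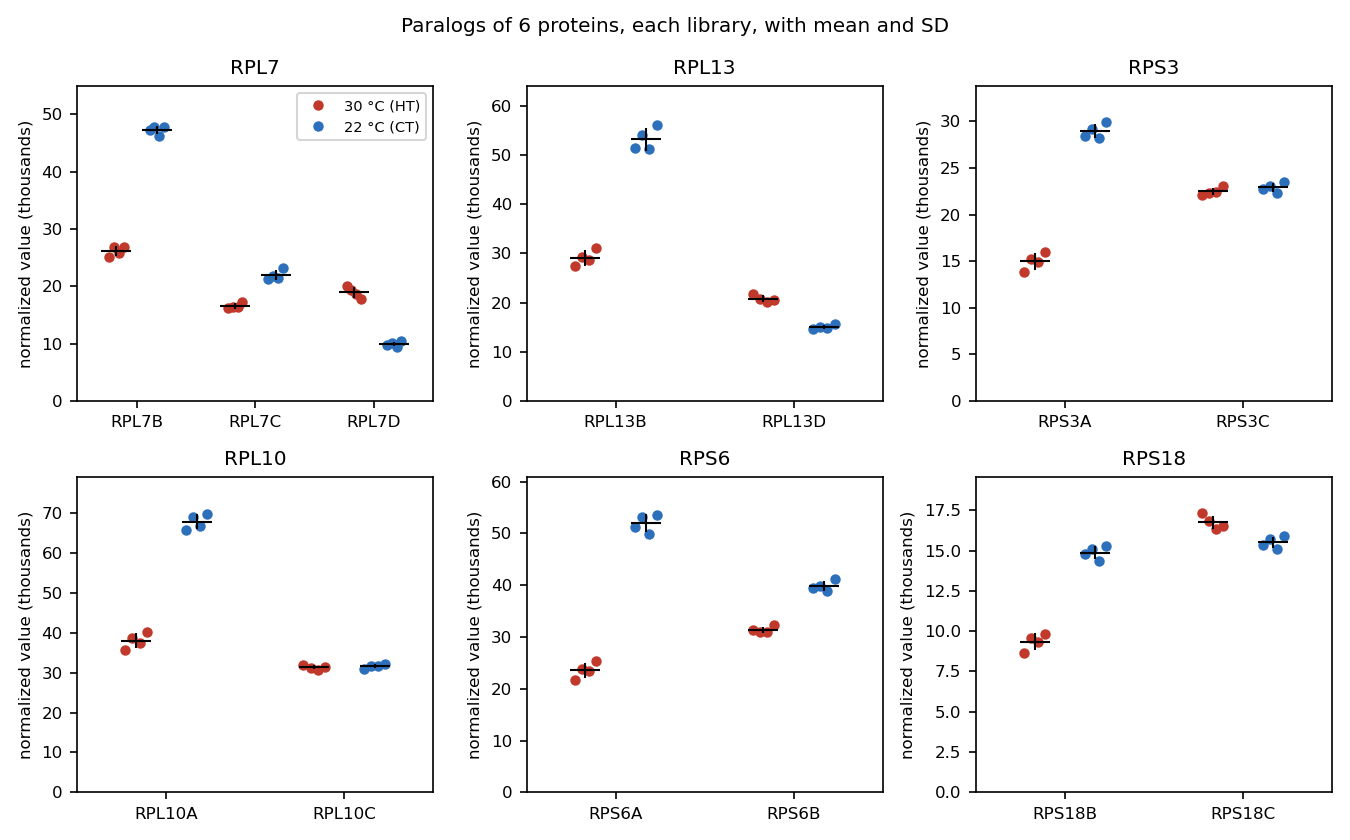
Normalized values are plotted for the paralogs of 6 proteins, with each HT library in red on the left and each CT library in blue on the right of a gene, and the mean and SD in black. RPL7D and RPL13D are higher in HT while their partners are lower, and, on this deposited scale, RPS3C and RPL10C overlap while RPS3A and RPL10A do not.

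In 4 pairs the ratios of HT and CT overlapped. RPS18A to RPS18B differed by 0.01 (95% interval -0.05 to 0.07) with an exact p of 0.743, RPS21B to RPS21C by -0.03 (95% interval -0.11 to 0.05) with an exact p of 0.600, RPL15A to RPL15B by 0.06 (95% interval -0.01 to 0.13) with an exact p of 0.143, and RPS8A to RPS8B by 0.15 (95% interval 0.04 to 0.25) with an exact p of 0.086. All 4 of these intervals lie within 0.58 either way. RPS18 shows how one protein can hold both kinds of pair: RPS18A and RPS18B had log2 fold changes of -0.66 and -0.67 (-0.46 and -0.47 with equal totals, short of the fold threshold), and RPS18C was not lower.

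**Figure D4:**
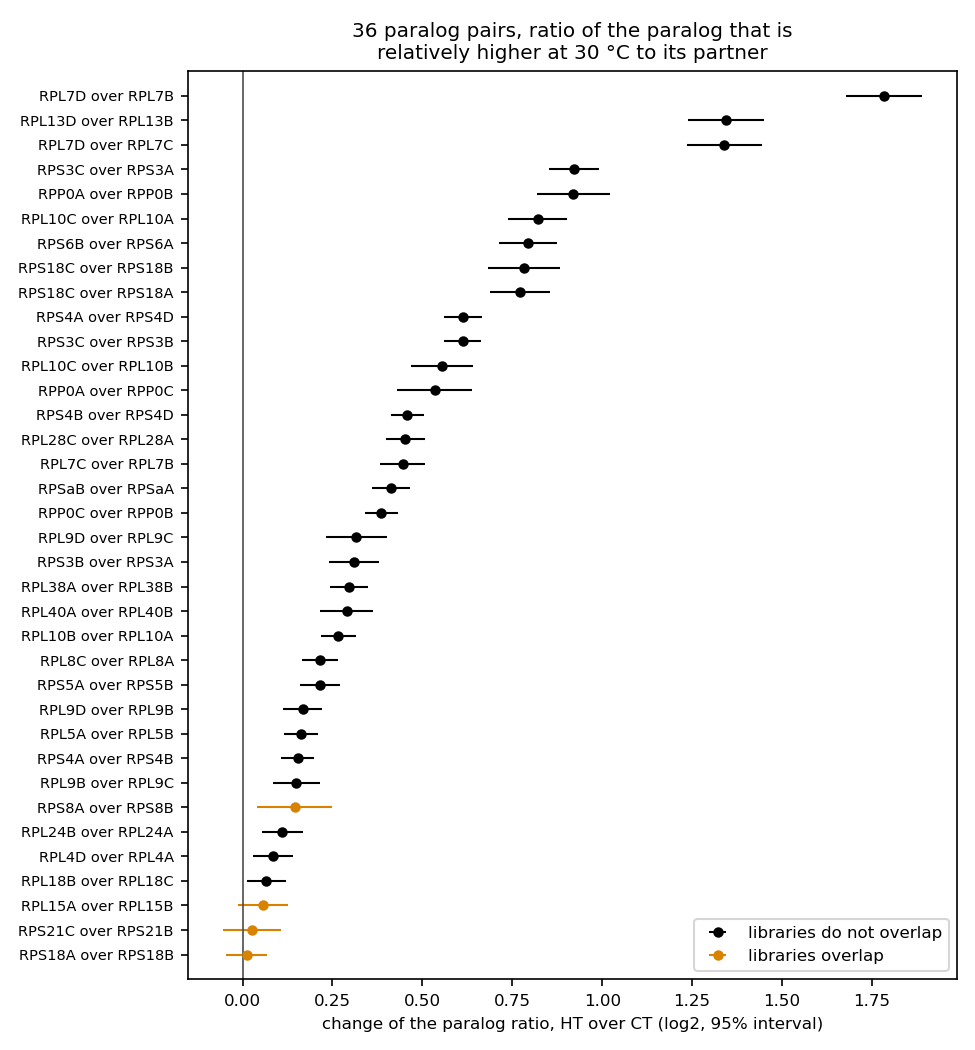
All 36 pairs are listed by the size of the change in their ratio, HT over CT, on the log2 scale with 95% intervals. Each pair is turned so that the paralog that was relatively higher at 30 °C comes first, black pairs have HT and CT libraries that do not overlap and orange pairs have libraries that do, and the values run from 0.01 for RPS18A over RPS18B to 1.78 for RPL7D over RPL7B.

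Shares were taken of the summed FPKM of a protein's measured members, without paralogs outside the list. RPL13D took 53.8 ± 1.94% in the HT libraries, against 31.4 ± 0.426% in the CT libraries (SD, n = 4 each). RPL7D took 26.8 ± 1.46% in the HT libraries, against 10.3 ± 0.214% in the CT libraries, and RPL7B 52.2 ± 1.08% in the HT libraries, against 69.2 ± 0.619% in the CT libraries. RPS6B had 56.9 ± 1.33% in the HT libraries, against 43.2 ± 0.440% in the CT libraries, RPL10C 45.8 ± 1.44% in the HT libraries, against 32.6 ± 0.340% in the CT libraries, RPS18C 42.5 ± 1.57% in the HT libraries, against 30.2 ± 0.191% in the CT libraries and RPS3C 41.0 ± 0.655% in the HT libraries, against 29.1 ± 0.165% in the CT libraries. In 7 of the 22 proteins another paralog had the largest mean share in HT than in CT, namely in RPL4, RPL9, RPL13, RPS3, RPS4, RPS6 and RPS18. In RPL4 the leading share was RPL4D with 50.5 ± 0.728% in HT and RPL4A with 51.0 ± 0.248% in CT. This held for the means only, as in HT replicate 1 RPL4A led with 50.6% against 49.4%. In RPL9 the lead passed from RPL9C to RPL9B, whose split is uncertain, and the shares of RPL9B overlapped between the groups. The paralog that led in CT had a lower share in every HT library in 14 of 22 proteins, a higher share in every HT library in 5, and overlapping shares in 3. This paralog was chosen by its CT share, which favours a lower share in HT. The counts are therefore a description, and nothing is concluded from them about leading paralogs.

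**Figure D5:**
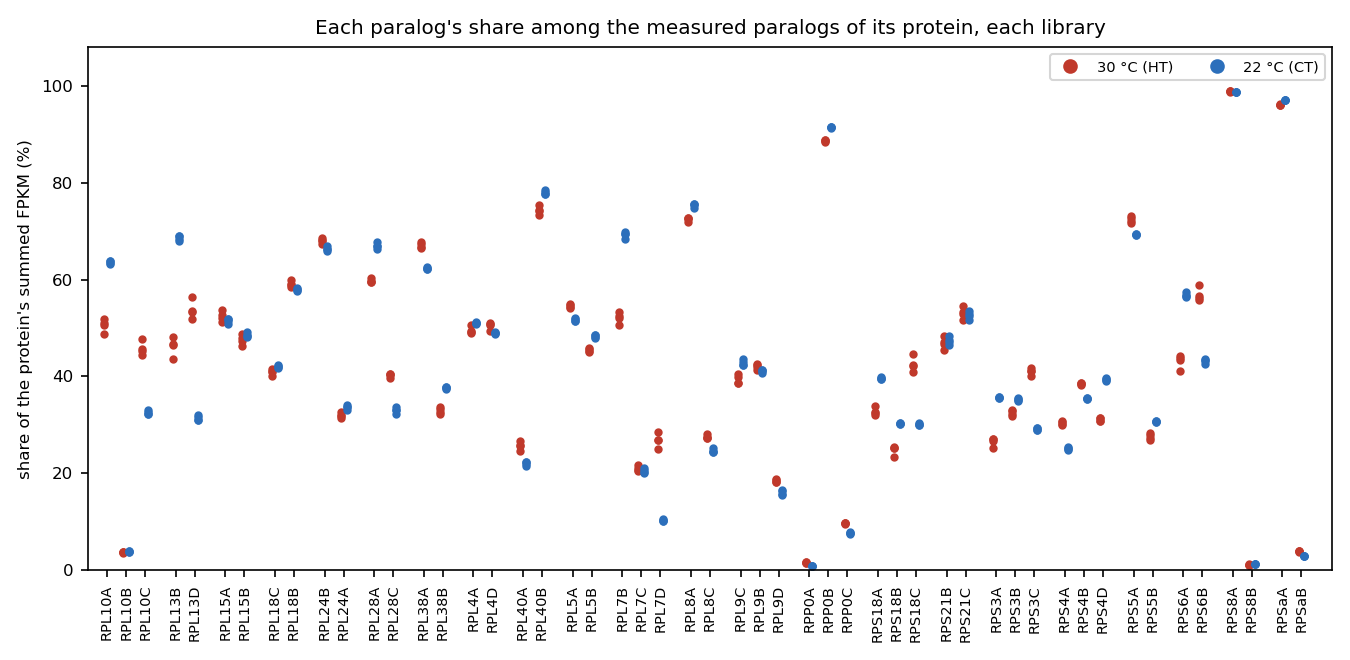
The plot of shares gives each paralog's percentage of the summed FPKM of the measured members of its protein. For each gene 4 HT libraries are in red and 4 CT libraries in blue. RPL13D has the largest gain, 53.8% in HT and 31.4% in CT, and RPS8A has 98.8% in HT and 98.7% in CT.

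The coding sequences of the 36 pairs were 68.2 to 99.1% identical (median 87.1%), and the longest run of identical transcript bases had a median of 33.5 bases. Only RPL9C and RPL9B shared a run of 100 bases or more. RPL7B and RPL7D were 79.5% identical with at most 32 bases in a row, and RPL13B and RPL13D 82.0% with at most 29. In the annotation 14 of the 60 members overlapped a gene on the opposite strand and 7 one on the same strand.

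Over all members, a window of 250 bases before to 50 bases after the gene start was searched on both strands and compared with the same window of 27443 nuclear protein-coding genes. TGGGCC was found in 43 of 60 members (71.7%) and in 15.5% of all genes, and TGGGCT in 32 (53.3%) and 14.2%. One or the other was present in 46 members (76.7%) and 21.7% of all genes. The telo-box letters were in 32 members (53.3%) and 6.22% of all genes, and both a site II form and a telo-box in 25 members (41.7%) and 2.20%. The heat shock element core GAANNTTC was in 6 members (10.0%) and 11.6% of all genes. A match on the minus strand reads as the reverse complement, GGCCCA for TGGGCC. A palindrome of TGGGCC with its complement counts as 2 overlapping matches, and the heat shock element core is its own reverse complement.

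The letters were found both in members that were lower and in the others. With calls from the deposited size factors, a site II form was in 28 of 38 lower members and 17 of the 21 other measured members, with a median of 2 matches per window in both. The telo-box was in 21 of 38 and 10 of 21. GAANNTTC was in 5 of 38 and 1 of 21.

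Other genes whose description names a ribosomal protein, taken by a rule on the text of the annotation, also had more lower than higher calls. Of 294 tested 103 were lower and 23 were higher, with a median log2 fold change of -0.42, and with equal totals 67 were lower and 38 higher. The lower ones are 35.0% and, with equal totals, 22.8% of the 294, where 17.5% and 12.0% of all genes were lower. Of all genes 20.0% and 27.4% were higher. The rule lets in proteins of organelle ribosomes and relatives of ribosomal proteins. Counting only descriptions with a eukaryotic name, a choice made after seeing the data, 46 of 119 were lower and 10 higher (33 and 18 with equal totals). The lower ones are 38.7% of these 119, and 27.7% with equal totals.

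The largest decreases there were in AT1G68590, described as PSRP-3/Ycf65 (log2 fold change -2.93), AT1G07070, of the L35Ae family (-1.56), and AT3G11120, of the L41 family (-1.37). The largest increases were in AT2G03130, described by an L12 and ClpS domain (8.54), AT2G28815, described as 50S ribosomal protein L16 (6.78), and AT5G43640, of the S19 family (3.91). AT5G39850, described as ribosomal protein S4 and named after its values were seen, had mean normalized values of 3330 in HT and 532 in CT (log2 fold change 2.64).

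Among the protein factors of translation, calls were made in both directions. Of 11 elongation factor genes 2 were lower and 2 were higher, and with equal totals 1 was lower and 2 were higher. These are shares near those of all genes (17.5% lower and 20.0% higher with the deposited size factors). AT5G60390, one of the genes of elongation factor 1-alpha, which brings aminoacyl-tRNA to the ribosome, had 114609, 120477, 120022 and 127928 in the HT libraries, against 241683, 252642, 242164 and 254443 in the CT libraries (log2 fold change -1.04). LOS1 (AT1G56070), elongation factor 2 of translocation, had a log2 fold change of -0.58 and lost its call with equal totals (-0.38). AT5G12110, described as elongation factor 1-beta 1, had 3784, 3469, 3268 and 3174 in the HT libraries, against 281, 314, 308 and 282 in the CT libraries (3.53), and AT1G30230 of the same exchange factor family had 1.13. Among initiation factor and poly(A) binding protein genes 3 of 11 were lower and none was higher at both thresholds: EIFISO4E (-0.89), EIF4A1 (-0.74) and ELF5A-2 (-0.61). The lower ones are 27.3% of this list, where 17.5% of all genes were lower and 20.0% higher. With equal totals EIFISO4E alone of these 11 was lower (-0.68), which is 9.1% of the list, where 12.0% of all genes were lower.

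Among 12 regulators of ribosomal protein genes and translation 4 were lower and 1 was higher, and with equal totals 3 were lower and 1 was higher. Of all genes 17.5% were lower and 20.0% higher, and with equal totals 12.0% and 27.4%. The lower calls of the list include the paralogs of 1 protein, RACK1. S6K1 (AT3G08730), an S6 kinase, had 2629, 2666, 2799 and 2815 in the HT libraries, against 5660, 5831, 6365 and 6195 in the CT libraries (log2 fold change -1.14). Its paralog S6K2 (AT3G08720) went the other way, with 571, 616, 644 and 581 in HT, against 492, 499, 496 and 486 in CT. The log2 fold change of S6K2 was 0.29, and 0.49 with equal totals, under the fold threshold both ways. The 3 RACK1 genes, which encode a scaffold protein of the small subunit, were lower at -0.69 (RACK1A), -1.06 (RACK1B) and -0.99 (RACK1C), and RACK1A lost its call with equal totals (-0.48). MAF1 (AT5G13240), a repressor of RNA polymerase III, was higher at 0.85. TOR (AT1G50030), the kinase at the head of this pathway, had 0.27 and did not pass the fold threshold.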

How the data were processed

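From poly(A) RNA the authors built dUTP-marked libraries, and the submitters' processing notes name HISAT2, the TAIR10 build and DESeq2. Their versions, the program that counted and its use of strand were not given in the sources used here. The deposited normalized signal values are read counts that the authors divided by a size factor per library, and the deposited FPKM values carry the same scaling. Dividing back gave whole reads for 100% of the normalized values, within 0.01 of a read.

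The main fit was limma 3.58.1 (R 4.3.3) with a trend of the variance on the mean on log2(normalized value + 0.5), for the 21739 of 23632 genes with a mean of at least 1, and p-values were adjusted over all of them (Benjamini-Hochberg). Fold changes are on this scale. The alternatives were equal totals, quantile normalization, no filter, a mean of at least 10, a pseudocount of 1, edgeR 4.0.16 and DESeq2 1.42.0 on the recovered reads, a replicate block, and leaving out each library. The fits were tested on simulated data. Coordinates, overlaps and sequences are from TAIR10.1, in which 23479 of the gene identifiers were found, and identities are from alignments with Biopython 1.88.

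The members and gene lists were chosen with earlier results of these data known. Values in every library are given for up to 6 members per direction past both thresholds, the 8 paralog pairs with the largest change, the most and least abundant member of each subunit and the 4 members with the smallest change. Libraries are pools of seedlings, and p-values measure the spread between them. Replicates differed by more than sampling noise (mean chi-square per gene 3.02 to 10.3).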

Additional observations from a re-analysis of the deposited data

Results flagged for a closer look

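Among 70 groups of 4 libraries checked, 2 had a library far from the other 3 of its group, where chance gives about 1 in 20. In RPL27aC (AT1G70600) CT replicate 4 had 54562, against 51879, 52021 and 52277 in the other CT libraries, a gap small beside the distance to the HT libraries (17848 to 21263). In the ratio of small to large subunit FPKM HT replicate 1 had 0.640, against 0.629, 0.630 and 0.631 in the other HT libraries.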

How the results depend on the processing

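The scaling between libraries moved the counts most. With equal totals 19 members were lower and 2 higher (6 higher by the adjusted p alone), the members' median was -0.50, and of the other ribosomal protein genes 67 were lower and 38 higher. With quantile normalization 10 members were lower and 2 higher (10 higher by the adjusted p alone) and the median was -0.32. These quantile counts are given without the share of all genes. Among the 23 members whose values are given per library, signs turned with equal totals for RPS3C (0.18), RPL10C (0.19) and RPS10B (0.13), with quantile normalization for RPS3C (0.34), RPL10C (0.42), RPS6B (0.11) and RPS10B (0.31), and for RPL10C also with edgeR on the recovered reads (0.0055). With edgeR, DESeq2, a pseudocount of 1, no filter or a mean of at least 10 the count of lower members was 38. With the replicate block it was also 38 (19 with equal totals, an alternative chosen after seeing the data). These counts too are given without the share of all genes. The replicate numbers did not pair the samples: deviations of same-numbered libraries correlated at 0.0097, 0.0075, 0.077 and 0.0031. Without 1 library in turn 32 to 33 paralog pairs did not overlap. The deposited counts give no way to set the total RNA per cell, and the cause of the gap between scalings was not tested.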
